A study of Mus musculus with 4 samples.

Results

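The genes described are the 7 Cdk inhibitor genes of the mouse, Cdkn1a, Cdkn1b, Cdkn1c, Cdkn2a, Cdkn2b, Cdkn2c and Cdkn2d, taken by name from a table of 31053 genes. Their transcripts were counted as unique molecular identifiers (UMIs) by droplet-based 3′ single-cell RNA sequencing of thymocytes from 4 FVB/N mice, 1 library a mouse. The WT mouse was wild type and 6 weeks old, and the preleukemic mouse was a Tal1/Lmo2 transgenic of the same age. T-ALL#1 and T-ALL#2 were thymi of Tal1/Lmo2 mice with leukemia at 3 months of age and form the leukemic group. In this line the proximal Lck promoter drives both transgenes, so they act in thymocytes, and the labels give no agent, only a sort for living single cells once red cells had been lysed. With only 1 library for WT and 1 for the preleukemic group, groups were not tested against each other. The intervals given for a library cover counting error only, at 95%.

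Cdk inhibitors restrain the cyclin-dependent kinases that carry a cell from rest into DNA replication. The Cip/Kip proteins, p21 (Cdkn1a), p27 (Cdkn1b) and p57 (Cdkn1c), bind complexes of cyclins with Cdk2 and Cdk1, while the Ink4 proteins, p16 (Cdkn2a), p15 (Cdkn2b), p18 (Cdkn2c) and p19 (Cdkn2d), bind Cdk4 and Cdk6 and keep cyclin D away. Cdkn2a also encodes Arf from a first exon of its own, a protein that holds back Mdm2 and so stabilises p53. In the thymus, p27 and p18 are known brakes on thymocyte division, and the Cdkn2a locus is a tumour suppressor in T-cell leukemia.

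By GENCODE M21 (GRCm38), Cdkn2a lies at chr4:89274471-89294653 on the minus strand and Cdkn2b next to it at chr4:89306299-89311039. Cdkn2c is on the same chromosome at chr4:109660876-109667189, Cdkn1b at chr6:134920401-134925513, Cdkn1c at chr7:143458339-143461050, Cdkn2d at chr9:21288410-21291407 and Cdkn1a at chr17:29090976-29100727. The 2 coding transcripts of Cdkn2a start from different first exons, 1 at chr4:89294334-89294653 for Arf and 1 at chr4:89281986-89282192 for p16, and share exon 2 at chr4:89276645-89276985 and the last exon. Counts from the 3′ end therefore add p16 and Arf transcripts together, and Cdkn2a values below are the sum of both. No other gene of the table overlaps a member on the same strand.

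Promoter windows of RefSeq on GRCm38.p6, from 250 bases before to 50 after each start, were found for 6 of the 7 members, and Cdkn1c had none. They are shown for 4 of the members whose levels differed between states of the cell cycle. Capitals mark an E2F motif (TTCCCGC or TTGGCGC) or a CCAAT box, searched on both strands, so that a box on the opposite strand reads ATTGG. The Cdkn2a window is that of the Arf start, chr4:89294570-89294869, minus strand, the Cdkn2c window chr4:109666707-109667006, minus strand, the Cdkn1b window chr6:134920151-134920450, plus strand, and the Cdkn2d window chr9:21291160-21291459, minus strand.
Cdkn2a: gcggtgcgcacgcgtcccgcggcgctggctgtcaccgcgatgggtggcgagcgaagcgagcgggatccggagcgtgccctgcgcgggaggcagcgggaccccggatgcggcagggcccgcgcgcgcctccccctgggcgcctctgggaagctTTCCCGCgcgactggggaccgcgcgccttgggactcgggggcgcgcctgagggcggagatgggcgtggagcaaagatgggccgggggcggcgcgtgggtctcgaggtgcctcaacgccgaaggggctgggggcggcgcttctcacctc
Cdkn2c: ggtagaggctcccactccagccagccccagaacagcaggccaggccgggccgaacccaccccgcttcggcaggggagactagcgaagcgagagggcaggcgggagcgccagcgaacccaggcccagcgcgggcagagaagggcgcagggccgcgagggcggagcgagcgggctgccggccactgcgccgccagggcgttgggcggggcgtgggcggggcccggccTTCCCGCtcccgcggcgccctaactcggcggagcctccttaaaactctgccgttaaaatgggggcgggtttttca
Cdkn1b: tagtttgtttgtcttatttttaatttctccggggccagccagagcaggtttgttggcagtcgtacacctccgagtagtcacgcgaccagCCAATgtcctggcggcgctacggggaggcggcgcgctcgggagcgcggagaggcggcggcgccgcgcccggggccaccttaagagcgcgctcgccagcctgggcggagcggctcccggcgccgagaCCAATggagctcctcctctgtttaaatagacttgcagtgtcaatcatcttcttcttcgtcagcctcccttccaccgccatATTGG
Cdkn2d: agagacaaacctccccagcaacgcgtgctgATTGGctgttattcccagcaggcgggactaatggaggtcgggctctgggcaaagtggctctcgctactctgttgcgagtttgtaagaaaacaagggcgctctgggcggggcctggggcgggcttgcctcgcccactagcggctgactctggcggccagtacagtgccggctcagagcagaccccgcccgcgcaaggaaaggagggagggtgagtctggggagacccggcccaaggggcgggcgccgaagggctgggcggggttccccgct
TTCCCGC was found once in the Cdkn2a window, 98 bases before the start, and once in the Cdkn2c window, 25 bases before it, and 4.60% of all 32851 windows hold this motif. The Cdkn1b window holds 3 CCAAT boxes and the Cdkn2d window 1, where 37.4% of all windows hold at least 1. Among the windows not shown, those of Cdkn1a and Cdkn2b hold neither an E2F motif nor a CCAAT box. The other windows of Cdkn2a and Cdkn2c hold a CCAAT box and no E2F motif. A match describes the letters in the window and says nothing of the binding of a factor.

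Cells were kept with more than 500 genes and under 10% mitochondrial UMIs, which left 4220 WT, 5576 preleukemic, 5773 T-ALL#1 and 1975 T-ALL#2 cells with 24042062 to 70745712 UMIs a library and a median of 3800.5 to 17581 UMIs a cell. At least 2 of 5 thymocyte markers were detected in 97.6 to 99.7% of the cells of each library. From 0 to 9 barcodes were shared by any pair of libraries. Tal1, which one of the transgenes encodes, was at 0 CPM (UMIs per 1000000 UMIs of the library) in WT and at 68.3 to 409.6 CPM in the 3 transgenic libraries, whereas Lmo2 was at 0.915 CPM in WT, 4.48 in preleukemic cells, 0.368 for T-ALL#1 and 0.276 for T-ALL#2, so neither leukemia held more of it than WT. The WT and preleukemic mice are labelled male, yet their libraries held Xist at 1380.2 and 1868.7 CPM and 1 and 5 UMIs of Y-linked genes, which goes against that label, so each test is also given without each library where this changed a call. T-ALL#1 held Xist at 1932.4 CPM and 1 UMI of Y-linked genes. T-ALL#2 differed from the others, with Xist at 0.0828 CPM and Y-linked genes at 121.8 CPM (4413 UMIs). The part of sex in the differences of T-ALL#2 was not tested. The median gene was 0.231 lower in T-ALL#1 and 0.528 lower in T-ALL#2 than in the preleukemic library on the log2 scale of CPM, and 0.254 and 0.560 lower than in WT, and ratios between these libraries are to be read against those shifts. Levels are compared between libraries and cell states, not between genes.

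Cdkn1a (p21, a p53 target) was nearly absent from the preleukemic thymus. It stood at 8.65 CPM in WT (interval 7.52 to 9.91, 208 UMIs), 0.490 in the preleukemic library (0.299 to 0.756, 20 UMIs), 5.85 in T-ALL#1 (5.30 to 6.44, 414 UMIs) and 2.46 in T-ALL#2 (1.97 to 3.02, 89 UMIs). No 2 of the 4 intervals overlap, and the preleukemic level was 17.7-fold below WT. Few cells carried it in any library, with a UMI in 2.32% of WT cells, 0.269% of preleukemic, 4.23% of T-ALL#1 and 2.73% of T-ALL#2 cells. With each cell thinned to 2000 UMIs the shares were 0.619, 0.0191, 0.722 and 0.405%. The WT lead over T-ALL#1 was slight with every cell weighted equally. WT was then at 3.99, preleukemic at 0.299, T-ALL#1 at 3.92 and T-ALL#2 at 2.09 CPM. By share of cells T-ALL#1 was the highest.

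Cdkn1b (p27) was the opposite kind of gene, detected in 56.0 to 62.7% of the cells of each library, and it stepped down from WT to the leukemias. Its level was 180.4 CPM in WT (175.0 to 185.8), 139.8 in the preleukemic library (136.2 to 143.5), 100.6 in T-ALL#1 (98.3 to 103.0) and 60.2 in T-ALL#2 (57.7 to 62.8). Each library lay below the one before it in this order with no overlap of intervals. Against the preleukemic library T-ALL#1 had a log2 ratio of -0.47 and T-ALL#2 one of -1.22, both further down than the median gene. Its share of thinned cells was 33.4, 29.9, 25.9 and 15.5% in the same order.

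Cdkn1c (p57, an imprinted inhibitor) was rare and was lower in both leukemias than in either other library. WT held 4.12 CPM (3.35 to 5.01, 99 UMIs), the preleukemic library 6.12 (5.38 to 6.93, 250 UMIs), T-ALL#1 1.06 (0.834 to 1.33, 75 UMIs) and T-ALL#2 0.745 (0.491 to 1.08, 27 UMIs). The preleukemic library was the highest and the intervals of the leukemias overlap each other. Its level was 5.77-fold below the preleukemic library in T-ALL#1 and 8.21-fold below it in T-ALL#2.

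Among the Ink4 genes, Cdkn2a and its neighbour Cdkn2b went the other way and were at their highest in the leukemias. Cdkn2a was at 0.499 CPM in WT (0.258 to 0.872, 12 UMIs), 1.18 in the preleukemic library (0.866 to 1.56, 48 UMIs), 9.61 in T-ALL#1 (8.90 to 10.4, 680 UMIs) and 13.4 in T-ALL#2 (12.2 to 14.7, 486 UMIs). Both leukemias lay above both other libraries, 8.18-fold and 11.4-fold over the preleukemic one, and the intervals of WT and the preleukemic library overlap narrowly. A Cdkn2a UMI was found in 0.284% of WT, 0.699% of preleukemic, 7.73% of T-ALL#1 and 17.2% of T-ALL#2 cells, and after thinning in 0.0929, 0.153, 1.11 and 2.28%.

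Cdkn2b (p15, a TGF-beta target) had 0 UMIs in WT, where the limit of 3 UMIs is 0.125 CPM, and 8 UMIs (0.196 CPM, 0.0845 to 0.386) in the preleukemic library. It reached 1.43 CPM in T-ALL#1 (1.16 to 1.73, 101 UMIs) and 0.993 in T-ALL#2 (0.696 to 1.38, 36 UMIs), 7.29-fold and 5.07-fold over the preleukemic level. In T-ALL#1, 11 cells held both genes, which is 2.47% of the 446 cells with Cdkn2a and 11.1% of the 99 with Cdkn2b, where 7.73% of all its cells held Cdkn2a. In T-ALL#2 7 cells held both, 2.06% of 340 and 20.6% of 34, where 17.2% of all its cells held Cdkn2a.

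Another gene of the neighbourhood did not share this order. Of 26 other genes of the table within 500 kb of the pair, Mtap, which recycles methylthioadenosine and had the most UMIs, was at 44.3 CPM in WT, 68.8 in preleukemic cells, 58.0 for T-ALL#1 and 131.0 for T-ALL#2. Mtap was thus highest in T-ALL#2 alone and lower in T-ALL#1 than in the preleukemic library.

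Cdkn2c (p18) varied least between whole libraries, at 45.2 CPM in WT (42.6 to 48.0), 41.9 in the preleukemic library (39.9 to 43.9), 52.2 in T-ALL#1 (50.5 to 53.9) and 33.4 in T-ALL#2 (31.6 to 35.4). WT and the preleukemic library overlap, T-ALL#1 is above both and T-ALL#2 below. The place of T-ALL#2 turned with TMM scaling, which gave 39.0, 37.1, 54.4 and 41.9 CPM, and its log2 ratio to the preleukemic library, -0.33, was a smaller fall than that of the median gene. Cdkn2d (p19) stepped down like Cdkn1b, from 167.0 CPM in WT (161.9 to 172.3) and 126.1 in the preleukemic library (122.7 to 129.6) to 92.8 in T-ALL#1 (90.6 to 95.1) and 42.5 in T-ALL#2 (40.4 to 44.6). No 2 of its intervals overlap, and its share of thinned cells was 28.9, 25.8, 18.3 and 8.66%.

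**Figure D1:**
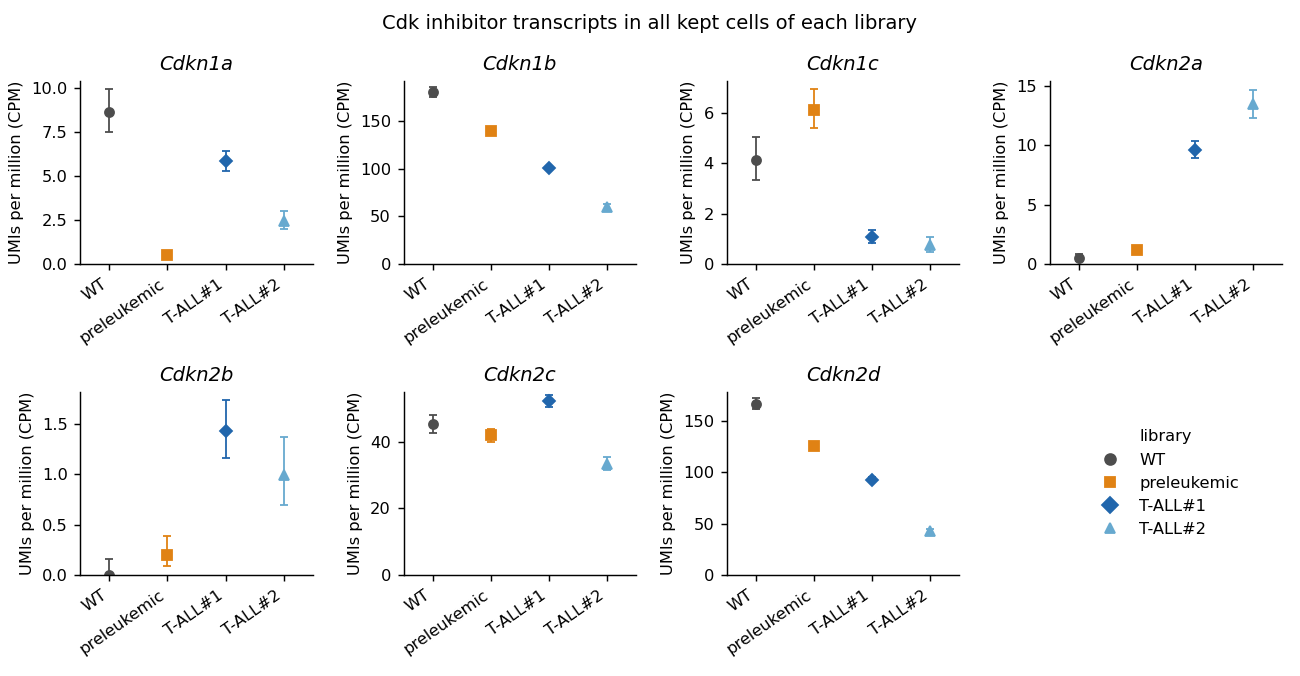
Level of each Cdk inhibitor gene in each library, as CPM over all kept cells (linear axes from 0, 1 panel a gene). Points are 1 library each and bars are exact Poisson 95% intervals of the count. Cdkn1b and Cdkn2d step down from WT to T-ALL#2, Cdkn2a and Cdkn2b are highest in the 2 leukemias, and Cdkn1a is lowest in the preleukemic library at 0.490.

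Counted by a 2-fold limit on the CPM ratio, over members and genes with at least 10 UMIs in the pair, the family stood as follows. From WT to preleukemic, 1 of 6 members was at least 2-fold higher (Cdkn2a, log2 ratio 1.24, interval 0.30 to 2.28), where 9.59% of all genes were, and 1 was at least 2-fold lower (Cdkn1a, -4.14, -4.88 to -3.48), where 10.6% were. From preleukemic to T-ALL#1, 3 of 7 members were higher (Cdkn1a 3.58, Cdkn2a 3.03 and Cdkn2b 2.87), against 9.14% of genes, and 1 was lower (Cdkn1c -2.53), against 21.7%. From preleukemic to T-ALL#2 the same 3 were higher, at 2.33, 3.51 and 2.34, against 8.88% of genes, and 3 were lower (Cdkn1b -1.22, Cdkn1c -3.04 and Cdkn2d -1.57), against 32.7%. The last 2 comparisons share the preleukemic library, so a low count there raises both, and its 20 UMIs of Cdkn1a lie in 15 cells. With every cell weighted equally the preleukemic Cdkn2a level was no longer 2-fold over WT (log2 ratio 0.45), and with TMM scaling Cdkn1b in T-ALL#2 was no longer 2-fold lower.

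**Figure D2:**
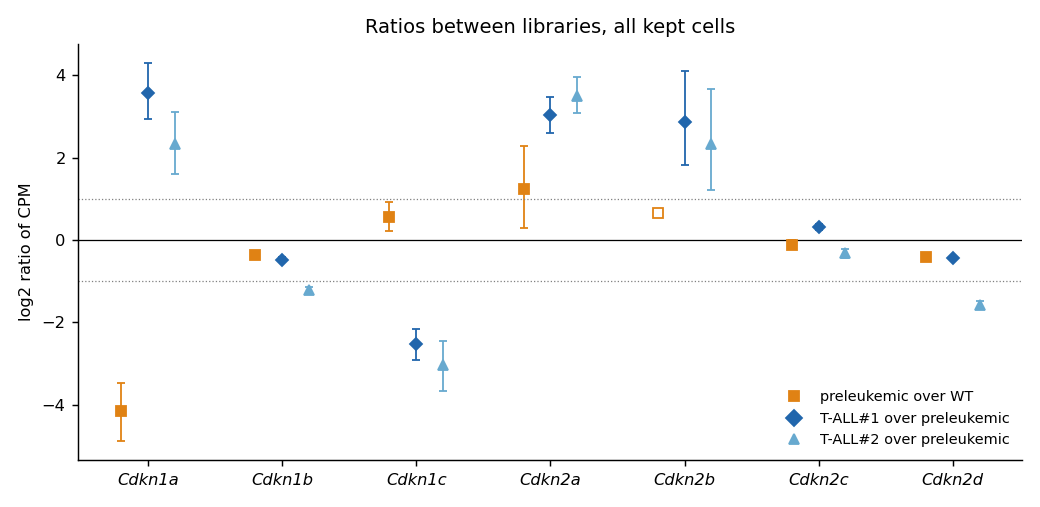
Log2 ratio of CPM between libraries for each Cdk inhibitor gene, all kept cells. Bars are exact conditional 95% intervals of counting error, the open square is a lower bound for a gene at 0 UMIs in WT, and dotted lines mark 2-fold. Cdkn1a is the only member that lies below -1 in the preleukemic over WT comparison and above 1 in both leukemias over preleukemic.

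The libraries differ in their makeup, so the ratios were read again within cell states. Cells with at least 1 UMI of Mki67 or Top2a, 2 genes of dividing cells, were called cycling. They made up 20.6% of WT, 23.8% of preleukemic, 47.9% of T-ALL#1 and 61.9% of T-ALL#2 cells. A single undetected UMI places a shallow cycling cell among the non-cycling ones, and the libraries differ in depth, so these shares are not free of depth.

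The Cdkn2a difference held in both states. In cycling cells it was at 1.12, 2.36, 11.8 and 15.5 CPM in WT, preleukemic, T-ALL#1 and T-ALL#2, and in non-cycling cells at 0, 0.180, 3.65 and 7.24 CPM. T-ALL#1 was 5.01-fold and T-ALL#2 6.55-fold over the preleukemic library in cycling cells, and the non-cycling ratios were 20.3-fold and 40.3-fold on 4 preleukemic UMIs. Cdkn1c remained lower in both leukemias within cycling cells, where the log2 ratios to the preleukemic library were -2.76 and -3.44, and within non-cycling cells, where they were -2.64 and -2.56. Cdkn1a remained 13.7-fold lower in preleukemic than in WT cycling cells.

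For Cdkn2c the near-equal totals covered a difference between the states. Non-cycling cells held 7.45 CPM in WT against 24.4 in preleukemic cells, 21.7 for T-ALL#1 and 22.2 for T-ALL#2, while cycling cells held 91.9, 62.7, 63.5 and 37.2 CPM. The 3 transgenic libraries were thus above WT among non-cycling cells, 3.28-fold in the preleukemic library with a log2 interval of 1.401 to 2.037, and below WT among cycling cells. The same order was seen within non-cycling double-positive cells, at 13.2 CPM in WT against 28.8, 24.3 and 28.2, and within those with Cd8a alone, at 7.72 against 23.1, 21.5 and 23.3. The lower level of the transgenic libraries among cycling cells was not common to all stages. WT was highest in cycling double-positive cells, at 121 CPM against 109, 73.2 and 38.2. Cycling cells with Cd8a alone held 57.5 CPM in WT against 72.5, 64.1 and 37.7. With Il2ra and neither Cd4 nor Cd8a, WT cycling cells were lowest, at 28.7 CPM (13 UMIs) against 50.1, 57.7 and 38.8. In thinned non-cycling cells a Cdkn2c UMI was found in 2.13% of WT cells and in 3.86 to 4.79% of the cells of the other 3 libraries.

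Cdkn1b in the preleukemic library and T-ALL#1 came close together once the states were separated, at 189.6 and 178 CPM in non-cycling and 80.4 and 71.8 CPM in cycling cells. WT was above both in each state, at 228 and 122 CPM, and T-ALL#2 below both, at 85.6 and 51.6 CPM. The WT lead over preleukemic and T-ALL#1 held in double-positive cells. There it was 326 against 189 and 231 CPM in non-cycling and 150 against 96.9 and 101 CPM in cycling cells. With Il2ra and neither Cd4 nor Cd8a, WT was below both. Its levels were 111 against 148 and 137 CPM in non-cycling and 33.1 against 51.5 and 57.2 CPM in cycling cells. The other gates were mixed. With none of Il2ra, Cd4 and Cd8a, non-cycling cells held 173 CPM in WT against 210 and 91.2. Cycling cells of that kind held 93.5 against 92.8 and 51.1 CPM. With Cd8a alone the levels were 191 against 156 and 154 CPM in non-cycling and 72.5 against 79.6 and 63.8 CPM in cycling cells. With Cd4 alone they were 165 against 148 and 177 CPM and 108 against 79.8 and 61.5 CPM. For Cdkn2d, the WT and preleukemic libraries were alike among non-cycling cells, at 146.3 and 152.1 CPM with a log2 ratio of 0.06 (-0.02 to 0.14), and differed among cycling cells, at 192.6 and 95.1 CPM. That cycling gap varied by stage, at 255 against 173 CPM in double-positive cells and 146 against 28.2 CPM (6 UMIs) with Cd4 alone. With Cd8a alone it was 97.2 against 91.0 CPM, and with none of Il2ra, Cd4 and Cd8a 95.6 against 101 CPM. With Il2ra and neither Cd4 nor Cd8a, WT was lower, at 19.9 CPM (9 UMIs) against 65.3.

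Developmental stage was read from 3 surface molecules. Cells with Il2ra UMIs and none of Cd4 or Cd8a, the profile of early double-negative thymocytes, numbered 54 in WT, 465 in preleukemic cells, 388 for T-ALL#1 and 498 for T-ALL#2. Cells with both Cd4 and Cd8a UMIs, the double-positive gate, numbered 2096, 201, 2408 and 242. Absence of a UMI does not show absence of the protein, and a shallow cell falls more easily into a negative gate.

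WT Il2ra-positive cells were where Cdkn1a stood out. Among non-cycling cells of this gate, WT held 56 UMIs (172.9 CPM, 130.6 to 224.5) in 22 of 34 cells, the preleukemic library none in its 270 cells, T-ALL#1 10 UMIs (9.23 CPM, 4.43 to 17.0) in 4 of 149 cells and T-ALL#2 1 UMI (0.472 CPM) in 1 of 150. Against the limit of 3 UMIs, the preleukemic level was at least 122-fold lower than WT. Among cycling cells of the gate the levels were 57.4, 1.94, 7.56 and 3.17 CPM, again highest in WT and lowest in the preleukemic library. The 54 WT cells of the gate held 3.23% of the WT UMIs, and its non-cycling and cycling cells held 26.9% and 12.5% of the WT UMIs of Cdkn1a.

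Other genes of the p53 arm, a list of 10, differed much less in the same cells. Trp53 itself was at 222 CPM in non-cycling Il2ra-positive cells of WT and 169.7 in those of the preleukemic library, Mdm2 at 58.7 and 65.9, Ccng1 at 40.1 and 44.1 and Bax at 83.4 and 120.4. Phlda3 and Sesn1 were at least 2-fold apart, Phlda3 higher in WT at 15.4 against 6.16 CPM on 5 and 13 UMIs, and Sesn1 lower at 34.0 against 70.2 CPM. Zmat3 had 0 UMIs in WT (upper limit 11.4 CPM) against 15.2 CPM, which shows no 2-fold gap. Thymocyte markers were present in 33 of the 34 WT cells, B-cell and erythroid markers reached 2 detected genes in none, and 6 cells held at least 2 myeloid and 4 at least 2 endothelial markers, against 1 and 9 of the 270 preleukemic cells. The part of these cells in the Cdkn1a level was not tested. Outside this gate, WT double-positive cycling cells held 11.3 CPM of Cdkn1a (71 UMIs), against 1 UMI in the 86 preleukemic cells of the kind, 7.88 CPM in T-ALL#1 and 1.74 in T-ALL#2.

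Across the 4 libraries, non-cycling Il2ra-positive cells were compared with non-cycling double-positive cells, with the library as a block. Of 8702 genes tested by edgeR's quasi-likelihood test, 3.19% were higher and 2.16% lower in the Il2ra-positive cells, and 3 of the 7 members had enough counts to be tested. Cdkn1b stood at 111, 148, 137 and 78.3 CPM in the Il2ra-positive and 326, 189, 231 and 131 CPM in the double-positive cells of WT, preleukemic, T-ALL#1 and T-ALL#2. It was lower in Il2ra-positive cells of all 4 libraries, with a log2 fold change of -0.70 ± 0.17 (SE, n = 4 libraries, edgeR adjusted p = 0.0378). The call rested on each of 3 libraries, with an edgeR adjusted p of 0.0807 to 0.116 without the preleukemic library, T-ALL#1 or T-ALL#2 in turn.

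Cdkn2d was also lower in the Il2ra-positive cells of every library, at 24.7, 107, 70.2 and 29.7 CPM against 218, 206, 121 and 54.5 CPM. Its log2 fold change of -1.10 did not pass the threshold (edgeR adjusted p = 0.0975), and without WT, which had the widest gap on 8 UMIs, it was -0.77 (edgeR adjusted p = 0.00659). It was also called lower with DESeq2 (-1.18, adjusted p = 0.0197) and with no filter on low counts (-1.13, edgeR adjusted p = 3.44e-07). Leaving out the filter raised the genes tested from 8702 to 16173 and hardly moved the fold change. The smaller p there is thus no sign of a larger effect, and its cause was not tested. Cdkn2c had a log2 fold change of -0.38 (edgeR adjusted p = 0.406). Without TMM factors the calls over all genes were 155 higher and 362 lower in place of 278 and 188.

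**Figure D3:**
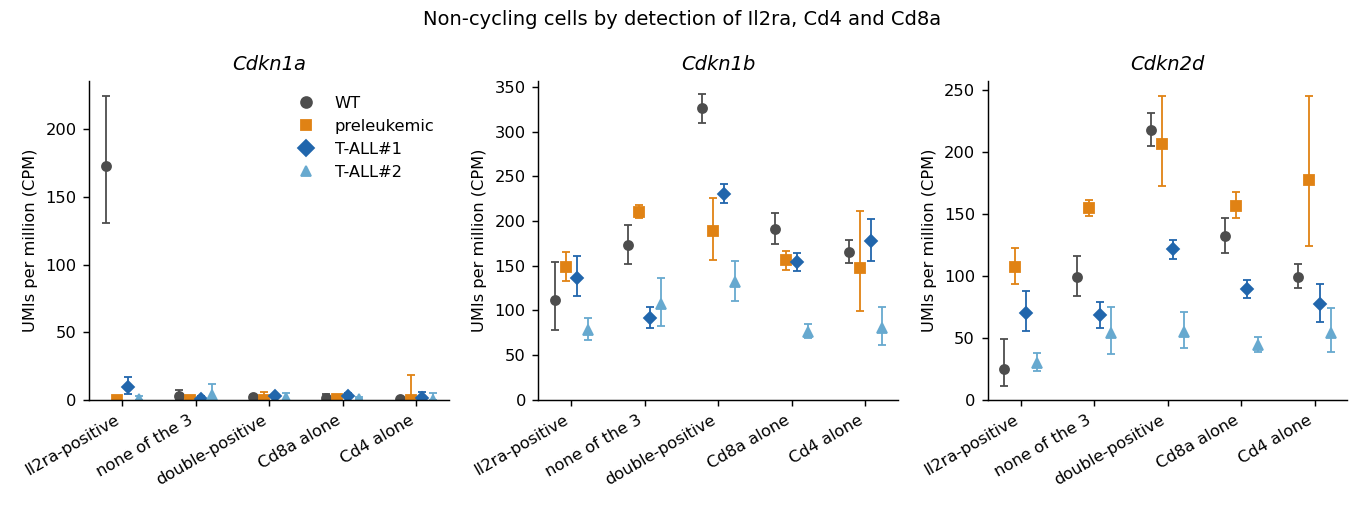
Level of Cdkn1a, Cdkn1b and Cdkn2d in non-cycling cells split by UMIs of Il2ra, Cd4 and Cd8a, as CPM (linear axes from 0). Points are 1 library each and bars are exact Poisson 95% intervals. WT Il2ra-positive cells stand alone for Cdkn1a at 172.9, and Cdkn1b is lower in the Il2ra-positive than in the double-positive cells of each library.

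The comparison of cycling with non-cycling cells asked how each inhibitor follows division, within each animal and averaged over the 4. Of 11856 genes tested, 26.1% were higher and 26.6% lower in cycling cells, so a call in either direction was common. Among the 7 members, 4 were higher (Cdkn1a, Cdkn1c, Cdkn2a and Cdkn2c), 1 was lower (Cdkn1b) and 2 did not pass (Cdkn2b and Cdkn2d). Without TMM factors the calls over all genes shifted from 3093 higher and 3149 lower to 2292 and 4353, while the 5 member calls and their directions held.

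Cdkn2c had the largest contrast in WT. Its levels in non-cycling and cycling cells, given above, differed by a log2 ratio of 3.62 in WT, 1.36 in preleukemic cells, 1.55 for T-ALL#1 and 0.75 for T-ALL#2. Cycling cells were higher in 4 of 4 libraries, with a log2 fold change of 1.92 ± 0.45 (SE, edgeR adjusted p = 0.0124). Without the preleukemic library the edgeR adjusted p was 0.0558, at a log2 fold change of 2.04, and with no filter on low counts it was 0.117.

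Cdkn2a was higher in the cycling cells of 4 of 4 libraries. The ratio was at least 4.94-fold in WT, where the non-cycling cells had 0 UMIs, and on the log2 scale 3.72 in preleukemic cells, 1.70 for T-ALL#1 and 1.10 for T-ALL#2. The fitted log2 fold change was 1.97 ± 0.43 (SE, edgeR adjusted p = 0.00956). The edgeR adjusted p was 0.0523 without T-ALL#1, and 0.0685 where the gates were read on cells thinned to 2000 UMIs.

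Cdkn1a followed with 12.6, 0.913, 6.96 and 2.99 CPM in the cycling cells of WT, preleukemic, T-ALL#1 and T-ALL#2 against 5.49, 0.135, 2.87 and 0.878 CPM in the others. It was higher in cycling cells of 4 of 4 libraries, by 1.62 ± 0.23 on the log2 scale (SE, edgeR adjusted p = 0.00122). The Il2ra-positive cells of WT went against this, at 57.4 CPM in cycling and 172.9 CPM in non-cycling cells, a log2 ratio of -1.59 (-2.32 to -0.90). The study's upper limit on genes would remove 10 of these 20 WT cycling cells and take their UMIs from 453265 to 106012. Cdkn1c was at 6.23, 8.002, 1.18 and 0.737 CPM in cycling and 2.41, 4.54, 0.730 and 0.768 CPM in non-cycling cells. It was higher in 3 of 4 libraries, beyond counting error in WT and the preleukemic library but not in T-ALL#1 (log2 ratio 0.70, -0.16 to 1.65), and T-ALL#2 was at -0.06 (-1.36 to 1.43). Its fitted log2 fold change was 1.05 ± 0.25 (SE, edgeR adjusted p = 0.0104). That call was lost without the preleukemic library (edgeR adjusted p = 0.0634) and with gates on thinned cells (0.0568).

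Cdkn1b, the quiescence inhibitor p27, was the one member that fell in cycling cells, by 0.88 ± 0.10 on the log2 scale (SE, edgeR adjusted p = 0.000582). The log2 ratio of cycling to non-cycling cells was -0.90 in WT, -1.24 in preleukemic cells, -1.31 for T-ALL#1 and -0.73 for T-ALL#2. It was lower in 4 of 4 libraries, and the call held without each library in turn. These values are relative to all UMIs of the cells, and cycling cells held more UMIs each. Their median was 9866.5 against 3280 in WT and 12890 against 4316 in preleukemic cells. It was 18481 against 4788 for T-ALL#1 and 22654 against 11194 for T-ALL#2. The lower CPM therefore does not show fewer Cdkn1b UMIs a cell.

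Cdkn2b and Cdkn2d did not pass the test. Cdkn2b was at 2.03 and 1.32 CPM in non-cycling and 1.20 and 0.885 CPM in cycling cells of the leukemias, T-ALL#1 first (log2 fold change -0.32, edgeR adjusted p = 0.510). Cdkn2d had a log2 fold change of 0.07 (edgeR adjusted p = 0.742), over libraries that differed in direction. Its cycling cells were above the non-cycling ones in WT (log2 ratio 0.40, 0.31 to 0.49) and below them in the preleukemic library (-0.68, -0.76 to -0.60), with T-ALL#1 at -0.10 and T-ALL#2 at -0.04. Within WT the sign differed by gate, at 0.23 in double-positive cells and -0.44 in those with Cd8a alone. Without TMM factors the fitted value was -0.11, and with gates on thinned cells Cdkn2d was called higher in cycling cells (0.51, edgeR adjusted p = 0.0383).

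**Figure D4:**
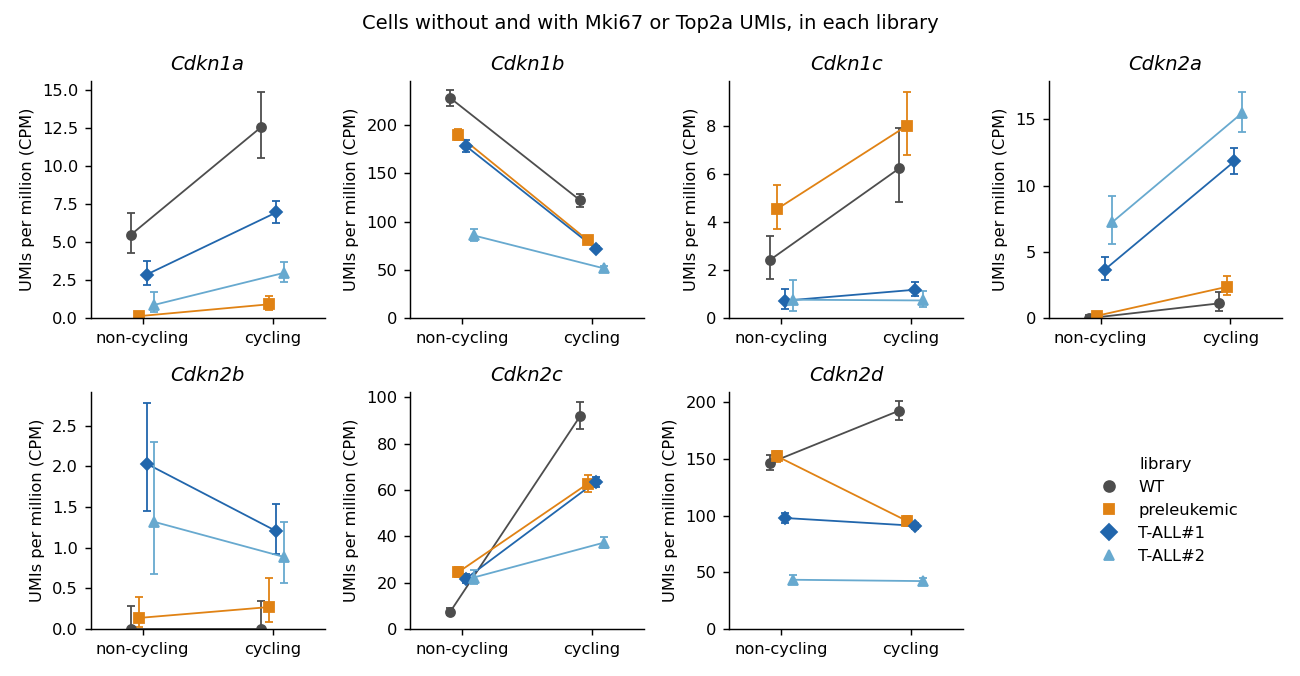
Level of each Cdk inhibitor gene in non-cycling and cycling cells, as CPM within that cell group (linear axes from 0). Lines join the 2 groups of 1 library and bars are exact Poisson 95% intervals. All 4 lines go up for Cdkn1a, Cdkn2a and Cdkn2c and down for Cdkn1b, and the lines of Cdkn2d cross.

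Within the stage gates, the members called kept the direction they had over all cells. In the double-positive gate, 4 of the 5 members tested were called: Cdkn1b at -0.90 (edgeR adjusted p = 5.33e-05), Cdkn2a at 1.66 (0.00181), Cdkn2c at 2.08 (0.00848) and Cdkn1c at 1.18 (0.0218), beside 24.4% of 9748 genes higher and 27.5% lower. Without TMM factors the split over all genes there was 1878 and 3429 in place of 2381 and 2684. In the Il2ra-positive gate, 2 of 4 were called, Cdkn1b at -1.16 (edgeR adjusted p = 7.31e-06) and Cdkn2c at 1.32 (4.46e-05), beside 18.4% of 8992 genes higher and 16.6% lower. Cdkn1a did not pass there, and its value of -0.34 (edgeR adjusted p = 0.644) had the opposite sign to that over all cells. That sign turned with DESeq2 (0.87), with the upper limit on genes (0.38) and with gates on thinned cells (0.30). The test of the difference between the gates called 0% of 9862 genes by edgeR and none by DESeq2, with 437 and 420 genes at an unadjusted p under 0.05, and gave each of the 5 members tested an edgeR adjusted p of 0.999. In the double-positive gate the call of Cdkn1c did not hold without the preleukemic library (edgeR adjusted p = 0.0951) or T-ALL#1 (0.0664), nor with DESeq2 (adjusted p = 0.114). The call of Cdkn1b was lost with gates on thinned cells (edgeR adjusted p = 0.0891) and that of Cdkn2c with no filter on low counts (0.0775).

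Cycling cells were then divided by whether they held more UMIs of 10 G2/M genes or of 10 S-phase genes, lists that hold no Cdk inhibitor. Of 10788 genes tested, 12.6% were higher and 16.1% lower in G2/M-led cells, and of the 6 members tested 4 were higher, 1 was lower and Cdkn2a did not pass, while Cdkn2b was not tested. Without TMM factors the split over all genes was 1805 higher and 1283 lower in place of 1361 and 1736.

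Cdkn2d, which showed no common direction above, had the largest value here. It was at 109, 71.1, 68.6 and 35.9 CPM in S-led cells and 363, 173, 157 and 77.5 CPM in G2/M-led cells of WT, preleukemic, T-ALL#1 and T-ALL#2. G2/M-led cells were higher in 4 of 4 libraries, by 1.27 on the log2 scale (edgeR adjusted p = 6.13e-09). Cdkn2c was at 70.1, 53.8, 52.3 and 34.6 CPM in S-led and 146, 104, 99.9 and 53.7 CPM in G2/M-led cells, higher in 4 of 4 libraries (0.85, edgeR adjusted p = 1.34e-07).

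Cdkn1b rose within the cycle as well, from 85.5, 64.9, 58.4 and 49.9 CPM in S-led to 179, 117, 103 and 55.3 CPM in G2/M-led cells (log2 fold change 0.68, edgeR adjusted p = 0.00109). In T-ALL#2 that ratio was within counting error (0.15, -0.07 to 0.36). Cdkn1c had a log2 fold change of 0.84 (edgeR adjusted p = 0.0179), with a ratio of -0.01 in T-ALL#1 and its edgeR adjusted p was 0.154 without the preleukemic library and 0.0712 with gates on thinned cells. Cdkn1a alone went the other way, at -0.81 (edgeR adjusted p = 0.00515). It was at 15.3, 7.85 and 3.28 CPM in S-led and 8.81, 4.72 and 1.56 CPM in G2/M-led cells of WT, T-ALL#1 and T-ALL#2. The preleukemic library did not go down, at 0.914 CPM in S-led (13 UMIs) and 1.07 CPM in G2/M-led cells (4 UMIs). Its log2 ratio of 0.23 (-1.84 to 1.93) was within counting error. In T-ALL#2 the ratio was within counting error (-1.07, -2.56 to 0.12). The Cdkn1a call was lost without T-ALL#1 (edgeR adjusted p = 0.0800) and with DESeq2 (adjusted p = 0.0619). Cdkn2a had a log2 fold change of 0.22 (edgeR adjusted p = 0.309).

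**Figure D5:**
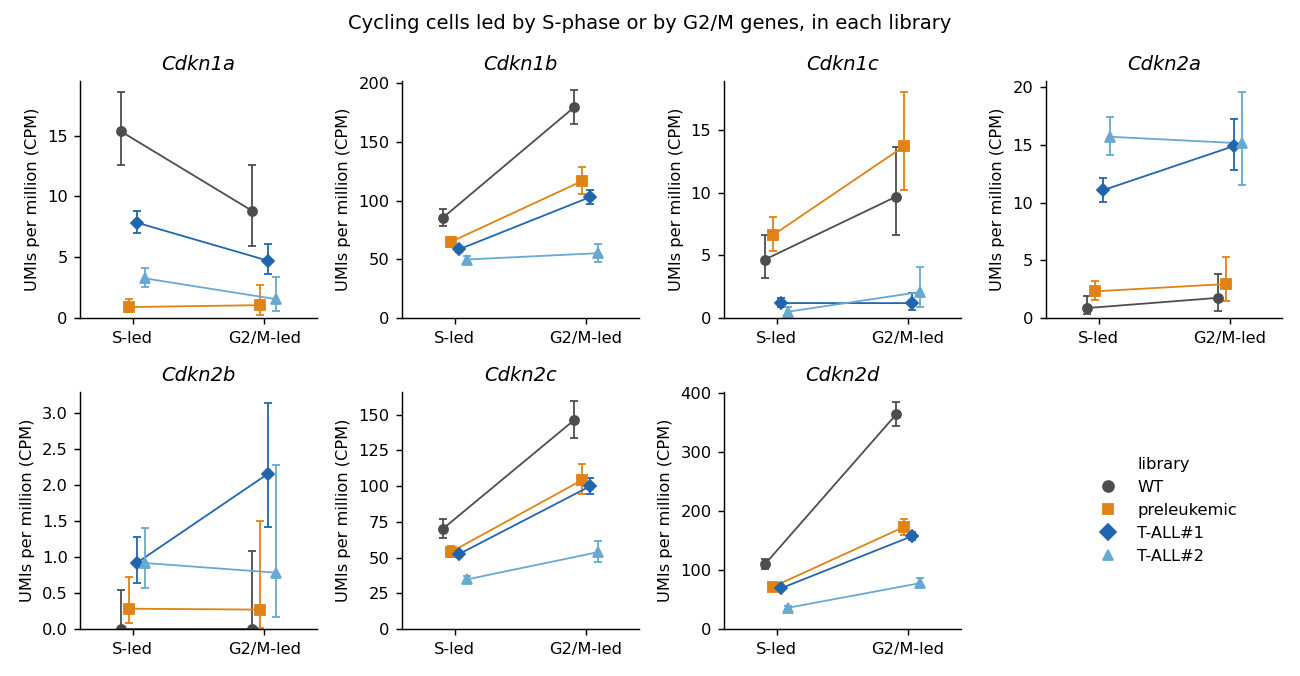
Level of each Cdk inhibitor gene in cycling cells led by S-phase genes and in those led by G2/M genes, as CPM within that cell group (linear axes from 0). Lines join the 2 groups of 1 library and bars are exact Poisson 95% intervals. Cdkn2d and Cdkn2c go up in all 4 libraries, and Cdkn1a goes down in WT, T-ALL#1 and T-ALL#2.

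The partners and regulators of the family were read in the comparison of cycling with non-cycling cells, where the median log2 fold change over all genes was -0.04, 26.1% of genes were higher and 26.6% lower. Of 9 Cdk and cyclin genes that the inhibitors bind, 5 were higher and 1 lower, with a list median of 0.99. The smallest adjusted p were those of Ccna2 (log2 fold change 5.46), Ccne1 (3.23), Cdk2 (1.23) and Ccne2 (3.88), all targets of the Cip/Kip proteins. Ccnd2, a D cyclin, was the one that fell, by 0.98. Of the Rb and E2F genes, which lie below the kinases, 8 of 10 tested were higher and 1 lower (list median 1.13), with E2f8 at 5.39, Rbl1 at 1.33, E2f3 at 1.96 and the lower Rbl2, the pocket protein of resting cells, at -1.18.

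Of 6 genes for the turnover of p27 protein, 4 were higher and 1 lower (list median 0.65). Cks1b at 2.45, Cul1 at 0.83, Skp2 at 2.14 and Skp1a at 0.47, parts of a ubiquitin ligase for p27, were the 4 higher ones. Rnf123 was the lower one, at -0.44 (edgeR adjusted p = 0.0106). These genes concern p27 protein, which was not measured, and a link to the Cdkn1b transcript was not tested. Of 9 transcription regulators of the family none was higher and 6 were lower (list median -0.41). Foxo1 at -1.11, Klf2 at -0.87, Foxo3 at -0.56 and Tgfbr2 at -1.13 had the smallest adjusted p, and the Foxo factors are known activators of Cdkn1b.

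Of 10 genes of the p53 arm, 3 were higher and 4 lower (list median -0.23), the higher ones at a share near that of all genes, with Trp53inp1 at -1.24, Sesn1 at -0.79, Mdm4 at -0.61 and Phlda3 at 1.41, and Mdm2 at -0.12 did not pass (edgeR adjusted p = 0.232). Of 7 Polycomb genes, whose products silence the Cdkn2a and Cdkn2b locus, 4 were higher and 1 lower (list median 0.49). Eed at 0.73, Suz12 at 0.81 and Ezh2 at 1.61 rose, and Cbx7, at -1.09, fell.

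The genes most like each member were found by Pearson correlation of log2(CPM + 5) over 39 sums of library, cycling state and gate, among 5772 genes. These sums share libraries and cycling state, so the values are a description. Cdkn2c was most like Pttg1 (0.915), Ccnb2 (0.910) and Knstrn (0.902), genes of mitosis. Cdkn1b was most like Zc3h7a (0.962), Gsk3b (0.953) and Malat1 (0.950), and Cdkn2d like Rock1 (0.912), Map4 (0.883) and Gtf2ird1 (0.877). For Cdkn2a they were Tfrc (0.863), Bax (0.860) and Fuom (0.856), for Cdkn1a Gm4632 (0.858), Uck2 (0.842) and AU020206 (0.747), and for Cdkn1c Trim59 (0.778), H3f3a (0.744) and Lbr (0.737). Cdkn2b had under 200 UMIs and was not compared.

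More than 1 inhibitor was often found in the same cell. No member was detected in 25.8% of WT, 18.1% of preleukemic, 14.8% of T-ALL#1 and 12.3% of T-ALL#2 cells, and 4 or more in 1.56, 1.11, 4.61 and 5.22%. The median depth rises in the same order of libraries, and its part in these shares was not tested.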

How the data were processed

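The deposited files hold raw UMI counts per gene and barcode, which the authors made with Cell Ranger 3.0.2 (called cells of WT, preleukemic and T-ALL#1) or Cell Ranger 4 (all 1791965 barcodes of T-ALL#2), per the file headers, on mm10. Of T-ALL#2, barcodes with at least 3416 UMIs were taken as cells. Doublets were not called, and the study's upper limit on genes was an alternative. The labels and the methods name different versions of the 10x 3′ chemistry and do not say which library used which.

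UMIs were summed per library and cell group, and CPM is UMIs per 1000000 of that sum. Intervals are exact at 95% (Poisson, or conditional binomial for ratios), a count of 0 was bounded by 3 UMIs, and thinned cells were drawn down to 2000 UMIs, leaving out shallower ones. Cell states were tested by edgeR 4.0.16 (R 4.3.3), quasi-likelihood, with TMM factors, filterByExpr, the library as a block and Benjamini-Hochberg adjustment over all genes at 0.05, leaving out the genes that set the gates. The block is the animal, since both sums come from the same thymus, and deviations of the paired sums correlated at 0.838 to 0.897 over 4054 genes. P-values measure the spread over 4 animals of 3 groups. On simulated counts the cycling test recovered 79.6% of genes changed 2-fold and 100% of those changed 4-fold, with 5 false calls among 11896 genes, and the stage test 48.4% and 98.9%, with 1 false call among 8671. The simulation changed a small part of the genes, by the same size in every library and with the same dispersion for all. These figures therefore do not cover effects that differ between libraries or genes with few UMIs.

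Alternatives were DESeq2 1.42.0, no TMM, no filter, no block, each library left out, other limits on cells and gates read on thinned cells. The members, lists and tests were chosen with earlier results of these data known. Of each pathway list the 4 genes with the smallest adjusted p in the cycling comparison were named. Ccnd2, Mdm2, Rnf123 and the genes named for the WT Il2ra-positive cells were chosen after their values were seen.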

Additional observations from a re-analysis of the deposited data

Results flagged for a closer look

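Over all cells, Cdkn2d had opposite directions in 2 libraries under the same contrast. Its log2 ratio of cycling to non-cycling cells was 0.40 in WT and -0.68 in the preleukemic library, each with an interval clear of 0, and the difference between these groups of 1 library was not tested. The WT direction depended on the gate, at 0.23 in double-positive and 0.56 in Cd4-alone cells. It was -0.44 with Cd8a alone (-0.70 to -0.19), -0.32 in Il2ra-positive cells and -0.05 with none of the 3 genes. In the preleukemic library all these gates were below 0, with Cd8a alone at -0.78.

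T-ALL#2 barcodes of 10 to 200 UMIs, which are too small to be cells, held member transcripts outside the cells compared. Over 4160 such barcodes with 460841 UMIs, Cdkn1b stood at 47.7 CPM (22 UMIs) against 60.2 CPM in the cells. Cdkn2a stood at 8.68 CPM (4 UMIs) against 13.4 in the cells, Cdkn2c at 45.6 CPM (21 UMIs) against 33.4, and Cdkn2d at 34.7 CPM (16 UMIs) against 42.5. Cdkn1a, Cdkn1c and Cdkn2b had 0 UMIs there, where the limit of 3 UMIs is 6.51 CPM. The part of such free RNA in the shares of T-ALL#2 cells was not tested, and the other libraries hold called cells only.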

How the results depend on the processing

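WT and the preleukemic group are 1 mouse each, so animal, library and group cannot be told apart between them. Rare members rest on few UMIs, and at this depth an undetected transcript is not an absent one. Over all alternatives, 337 of 382 fitted member values kept their direction and call, 31 lost the call, 4 gained one and 10 changed sign. Of 192 counts, 160 stayed within 1.5 times.

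Without the library block, pairing is lost and calls fell to 922 genes and 1 member (cycling), 0 and 0 (stage), 615 and 1 (cycling, Il2ra-positive), 1402 and 2 (cycling, double-positive) and 107 and 0 (phase). Without each library in turn, members called ranged from 3 to 5 (cycling), 0 to 2 (stage) and 2 to 5 (double-positive). Genes called ranged from 7 (without the preleukemic library) to 562 (stage), 1849 to 3313 (Il2ra-positive) and 1730 to 2963 (phase). The Cdkn2d log2 fold change then ranged from -0.12 to 0.22 (cycling) and from -0.27 to 0.20 (Il2ra-positive). In the difference between gates, Cdkn2a ranged from -1.18 to 0.80 and Cdkn2d from -0.32 to 0.025.

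The stage comparison called 1255 genes and 3 members with no filter, 1889 genes with thinned gates, 292 genes with cycling cells included and 2 members with DESeq2. Thinned gates gave 1338 genes in the Il2ra-positive gate, and 820 genes and 1 member in the double-positive gate. In the Il2ra-positive gate Cdkn1a went from -0.34 to 0.87 (DESeq2), 0.38 (upper limit on genes) and 0.30 (thinned), and Cdkn2d to 0.24 (thinned). Without TMM factors Cdkn2d was -0.11 over all cells and -0.013 in the double-positive gate. The difference between gates called 1 gene with no filter, and DESeq2 called 2036 genes between phases. With every cell weighted equally, Cdkn2a was lost and 0 members were 2-fold higher in preleukemic than in WT. The cause of these changes was not tested.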
